A study of Mus musculus with 6 samples.

Results

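The genes described here are 10 genes of matrix turnover: the matrix metalloproteinases Mmp2, Mmp3, Mmp9, Mmp13 and Mmp14, the protease Adamts1, and the tissue inhibitors of metalloproteinases Timp1, Timp2, Timp3 and Timp4. They were chosen by name, and every chromatin region that the authors' tables assigned to 1 of these genes was taken. The 4 tables held 103 such entries of 456310 regions in all. Those were 50 of 170890 and 34 of 180118 in the T set tables, and 8 of 52723 and 11 of 52579 in the S set tables. Counted once per set, these were 68 places for T and 13 for S.

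The data were 6 CUT&Tag libraries from mouse primary cardiac fibroblasts of the heart, a method in which an antibody guides a transposase to chromatin so that reads collect where the antibody's target sits. The libraries formed a T set and an S set, each with 1 library of cells labelled NC, 1 of cells given TGF-b, and 1 of cells given TGF-b together with an siRNA. The labels call that siRNA SiTAZ in the T set and SiSRF in the S set, while the siRNA of the study's own account was directed at Piezo2 or was a scrambled sequence. The study profiled TAZ and SRF, but no label states the antibody, so that the letters T and S are kept as names here. The series' design text further describes Tet3 deletion by a Cre virus before TGF-b, and no sample label names a Tet3 genotype. NC is not spelled out in the labels. The study's methods place its mouse strains on a C57BL/6 J background, and the age of the mice and any pooling of animals are not given for these libraries in the sources used here. The labelled cell type could not be checked against marker genes, since the tables hold chromatin reads and no transcripts.

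Cardiac fibroblasts make and remodel the collagen-rich matrix of the heart, and TGF-b drives them toward the contractile, matrix-producing myofibroblast. Matrix metalloproteinases are zinc-dependent proteases made as inactive precursors, which cut collagens and other matrix proteins once their propeptide is removed. TIMPs bind active metalloproteinases and block them, so that the balance of both families sets how much matrix is broken down. TAZ has no DNA-binding domain and reaches chromatin mainly through TEAD factors, which bind a GGAATG core, whereas SRF binds the CArG box and AP-1 binds TGACTCA.

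With 1 library per treatment, no difference between treatments could be set against biological spread, and no test was made. Each value below is the number of reads in a window of 2 kb around a region, recovered from the deposited densities. The log2 ratio is that of the deposited densities, the later treatment over the earlier one, with a 95% interval that covers counting error only and was derived from Wilson's interval for the later library's part of the reads. More cells with the target on a gene and more target per cell cannot be told apart. Reads are as counted, before any scaling between libraries, whereas the ratios carry the authors' scaling. Depth was low throughout. Over all regions, the median window held 5 to 9 reads for T and 8 to 10 for S, and windows of these 10 genes held 0 to 57 reads. Distances run from the middle of a region to the nearest start of any transcript, so that a region annotated as promoter may lie inside the gene, at the start of an inner transcript.

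Promoter sequences were at hand for 8 of the 10 genes, from RefSeq on GRCm38.p6, as 300 bases around the start. A TEAD motif (GGAATG, either strand) stood in 1 of these 8 promoters, that of Timp1, against 14.7% of all 32851 promoters. The AP-1 motif (TGACTCA, either strand) stood in 2, those of Mmp13 and Mmp3, against 5.2% of all promoters, and no CArG box was found in the 8, against 1.63%. These 3 promoters are shown because they hold the matches, and because the T set had a region on the Timp1 and the Mmp13 promoter. The 250 bases before each start are given 5′ to 3′, on the plus strand, with the motif in capitals.
Timp1, chrX:20869916-20870165: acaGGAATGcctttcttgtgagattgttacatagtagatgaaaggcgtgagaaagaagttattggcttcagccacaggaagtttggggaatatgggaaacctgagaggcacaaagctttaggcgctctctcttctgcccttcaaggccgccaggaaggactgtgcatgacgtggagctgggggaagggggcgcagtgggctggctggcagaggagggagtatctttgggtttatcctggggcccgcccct
Mmp13, chr9:7272264-7272513: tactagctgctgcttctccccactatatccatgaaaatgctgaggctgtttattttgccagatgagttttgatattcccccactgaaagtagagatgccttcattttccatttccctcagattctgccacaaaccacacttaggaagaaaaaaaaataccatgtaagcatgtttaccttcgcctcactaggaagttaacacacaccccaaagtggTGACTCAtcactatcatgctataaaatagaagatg
Mmp3, chr9:7445572-7445821: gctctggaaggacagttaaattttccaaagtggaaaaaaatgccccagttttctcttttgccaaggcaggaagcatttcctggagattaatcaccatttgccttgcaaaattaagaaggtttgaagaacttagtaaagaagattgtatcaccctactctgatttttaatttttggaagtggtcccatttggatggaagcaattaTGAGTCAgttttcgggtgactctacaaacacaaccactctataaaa
The TEAD match of Timp1 covered bases 247 to 242 before the start, and the AP-1 matches covered bases 35 to 29 for Mmp13 and 46 to 40 for Mmp3, the last on the minus strand. The deposited Timp1 region nearest the start ran from 113 bases before to 3 bases past the first base of its transcript, and the Mmp13 region from 186 to 73 bases before it, so that neither region itself covered the match. The windows of 2 kb in which reads were counted take in both matches, so that the reads cannot be placed on or off them. Base composition ranged widely. Timp2, Timp3 and Adamts1 had 68.7%, 67% and 64.7% G+C with 25, 24 and 18 CpG sites, whereas Mmp13 and Mmp3 had 43.7% and 40% with 1 CpG each. In between, Mmp14, Timp1 and Timp4 had 56%, 55% and 53.3% with 10, 8 and 2 CpG sites, near the median of 52.7% with 7 CpG sites over all promoters.

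With TGF-b against NC, the regions of these genes in the T set crossed the 2-fold threshold about as often as the table as a whole. Of 50 regions, 9 (18%) were at least 2-fold higher with TGF-b, against a background of 17.3% of all regions, and 20 (40%) were at least 2-fold lower, against 42.1%. Their median log2 ratio was -0.66, beside -0.65 over all regions. The interval lay above 0 for 7 regions, or 14%, against 14.8% of all regions, and below 0 for 20, or 40%, against 31.1%. Over 10 reads in a library were held by 31 of the 50 (62%), against 49.7% of all regions, and intervals narrow as reads increase. Of the 50, 18 lay within 2 kb of another and so shared part of its window. A region entered the table because it was called in at least 1 of the libraries, and 37 of the 50 had been called in NC only, 11 in TGF-b only and 2 in both. Such calls set the direction of most regions in advance: of the 37 called in NC only, 19 were 2-fold lower, and of the 11 called in TGF-b only, 7 were 2-fold higher. Over the whole table, 69677 of 117769 regions called in NC only were 2-fold lower, and 26173 of 43854 called in TGF-b only were 2-fold higher.

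**Figure D1:**
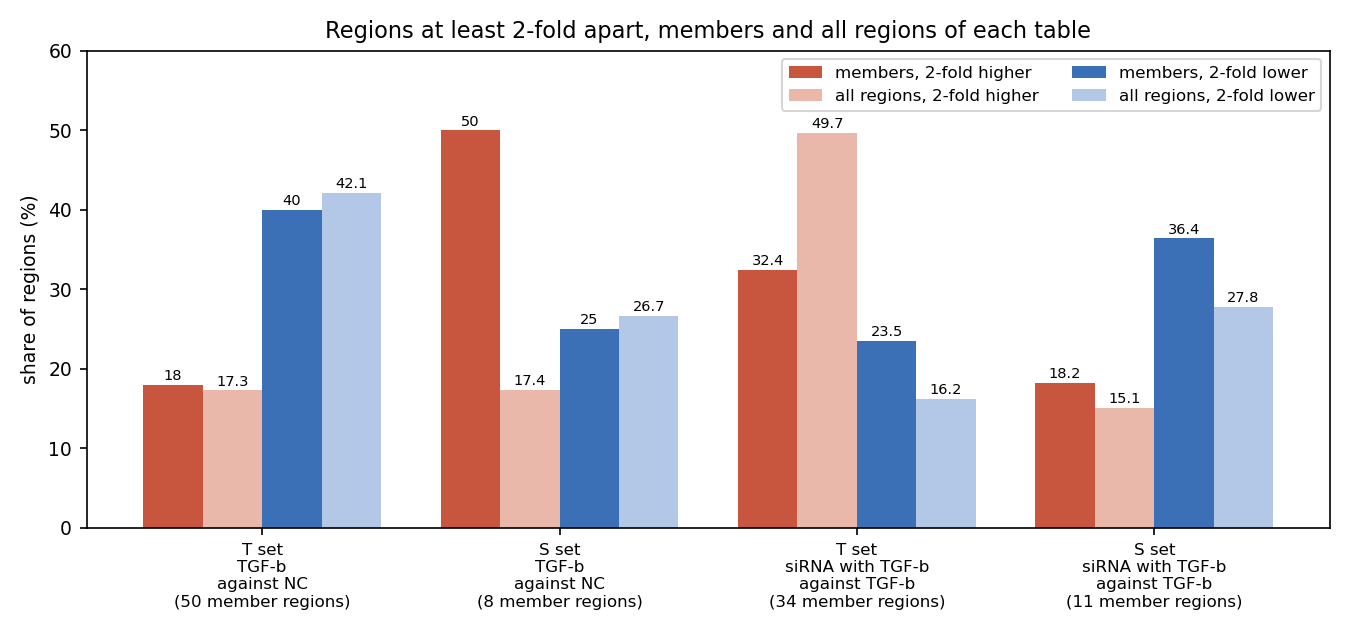
Share of regions (%) at least 2-fold higher or lower in the later library of each table, for the regions of the 10 genes (dark bars) and for all regions (light bars). In the T set with TGF-b the shares were 18 against 17.3 for higher and 40 against 42.1 for lower, and the S set bars rest on 8 and 11 member regions.

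**Figure D2:**
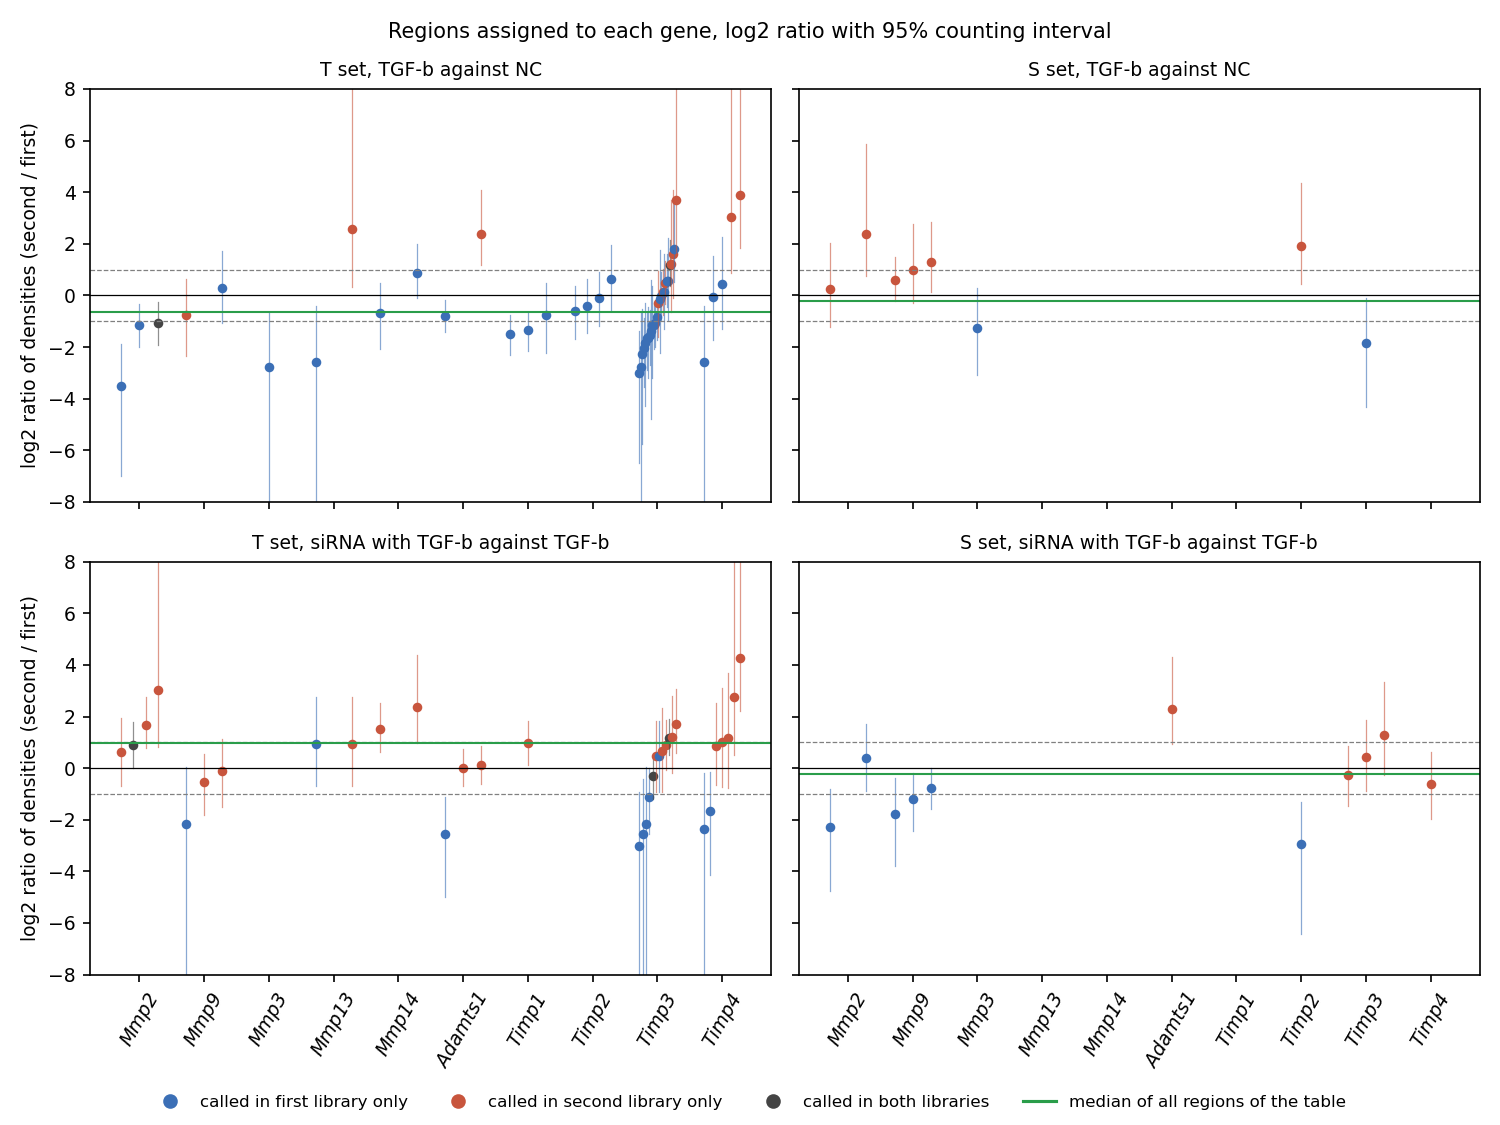
Log2 ratio of densities for each region by gene in the 4 tables, with 95% counting intervals as vertical lines, which run off the axis where a library had 0 reads. The colour gives the library in which the region was called and the green line the median of all regions, at -0.65 and 0.97 for T and at -0.2 and -0.21 for S.

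Mmp2 and Mmp9 are the gelatinases, which digest denatured collagen and basement membrane collagen. All 3 Mmp2 regions of the T set table were at least 2-fold lower with TGF-b than in NC, beside 42.1% of all regions of that table, and 1 of the 3 was so after the table's median had been subtracted. The highest lay in intron 11 of 12 of Mmp2 (chr8:93574042-93574317, GRCm39), 20.3 kb past the start of the main transcript, and held 37 reads in NC, 17 with TGF-b and 23 with TGF-b and siRNA. Its log2 ratio was -1.05 (interval -1.91 to -0.27) for TGF-b against NC and 0.88 (0.02 to 1.80) for siRNA against TGF-b. With each table's median subtracted, these were -0.40 and -0.09. The neighbouring region 2917 bases past an inner start held 37 and 16 reads and shares most of that window, so that it is no further observation. A separate Mmp2 region (chr8:93569682-93569780), 847 bases before the start of the inner transcript ENSMUST00000211567 and 15.8 kb into the gene, held 24 reads in NC and 1 with TGF-b, a log2 ratio of -3.49 (-6.98 to -1.89).

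Next to it, the S set showed the opposite order at Mmp2. The S region chr8:93569107-93569439, with its middle 458 bases away, held 1 read in NC, 15 with TGF-b and 2 with TGF-b and siRNA. The log2 ratio was 2.40 (0.74 to 5.87) for TGF-b against NC and -2.29 (-4.75 to -0.81) for siRNA against TGF-b. The T region had been called in NC only and the S region with TGF-b only, so that the opposite order is in part fixed by how the regions were chosen. The S set also had a region on the intron 11 place of Mmp2, which overlapped the T region by 195 bases and held 4, 8 and 10 reads in NC, TGF-b and siRNA. Its log2 ratios of 0.25 (-1.23 to 2.05) and 0.39 (-0.87 to 1.72) did not differ from 0 beyond counting error. In the siRNA table of the T set, 4 Mmp2 regions were listed and 2 were at least 2-fold higher than with TGF-b alone, beside 49.7% of all regions of that table. The region 4749 bases past the inner start (chr8:93575293-93575361) went from 11 to 27 reads, a log2 ratio of 1.69 (0.77 to 2.76), or 0.72 with the table's median subtracted. It had been called in the siRNA library only, where the median of all such regions was 1.62. The region nearest a start, 712 bases before that of ENSMUST00000211691, held 8 and 9 reads, and 1 further Mmp2 region in intron 1 of the gene held 0 and 5 reads.

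Mmp9 had more S set reads in the TGF-b library than in the other two at all 3 of its places. The region 942 bases before the main start (chr2:164789127-164789267) held 5 reads in NC, 21 with TGF-b and 8 with siRNA. The region with the most reads (chr2:164791814-164791966), 726 bases before the start of ENSMUST00000134382, held 15, 34 and 19 reads, and that in intron 8 of 12 (chr2:164794017-164794187) held 4, 14 and 3. The log2 ratios for TGF-b against NC were 1.30 (0.14 to 2.85), 0.58 (-0.23 to 1.5) and 1.0 (-0.31 to 2.75) in that order, and those for siRNA against TGF-b were -1.21 (-2.45 to -0.17), -0.76 (-1.60 to 0.00) and -1.79 (-3.80 to -0.40). All 3 regions had been called in the TGF-b library only, in both tables, so that a high value there is part of how they were chosen. Of the 4 T places of Mmp9, 3 were listed in a single table, so that the order of all libraries cannot be read there. The region 429 bases before the main start held 7 reads in NC and 8 with TGF-b, a log2 ratio of 0.30 (-1.08 to 1.73). The regions in exons 3 and 11 of 13 went from 11 to 7 and from 17 to 8 reads with the siRNA, which gave log2 ratios of -0.13 (-1.51 to 1.13) and -0.54 (-1.80 to 0.55). At these 3 the TGF-b count was the higher one, and every interval included 0. The last, upstream of the main start and listed in both tables, held 10, 5 and 0 reads in NC, TGF-b and siRNA.

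**Figure D3:**
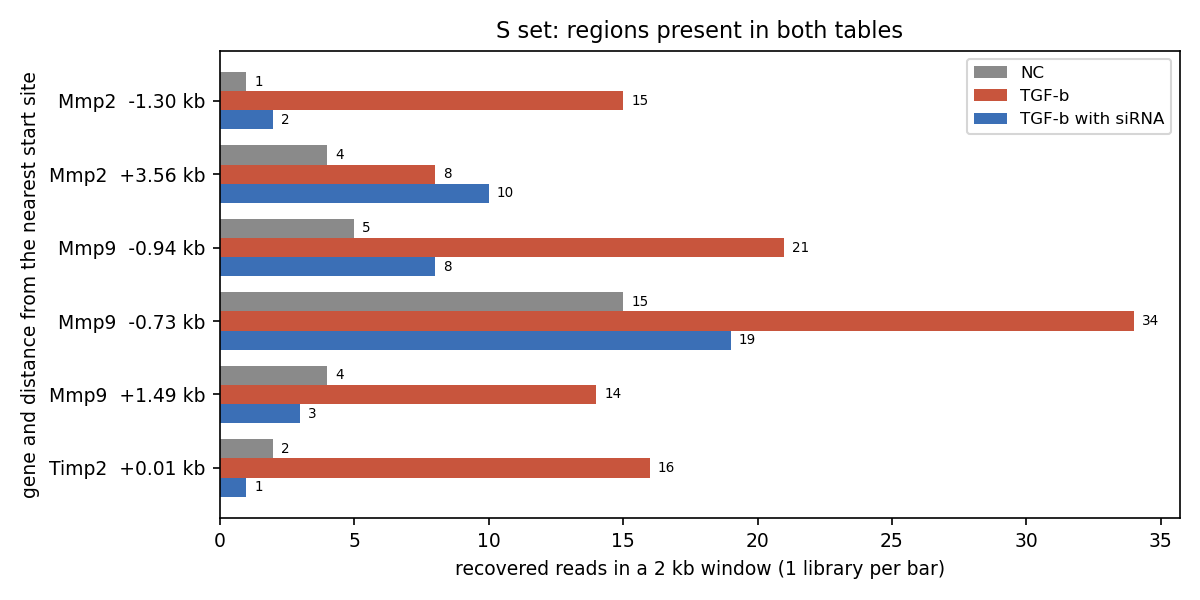
Reads in a 2 kb window (horizontal axis, 1 library per bar) for the 6 S set regions listed in both tables, by gene and distance from the nearest start (vertical axis). The TGF-b bar was the longest for the 3 Mmp9 regions, for Timp2 and for the Mmp2 region before the inner start, with 14 to 34 reads, but not for the Mmp2 region in intron 11. All 6 had been called in the TGF-b library only, in both tables.

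Mmp3, or stromelysin-1, cuts proteoglycans and activates other metalloproteinases, and Mmp13 is the main interstitial collagenase of the mouse. Neither gene held many reads. The single T region of Mmp3, in exon 6 of 10 (chr9:7450074-7450155), held 7 reads in NC and 0 with TGF-b, at least 1.7-fold lower when the empty library is given 3 reads. Bounds of this kind leave out counting error, and the end of the log2 interval nearest 0, here -0.63, is given with each. The single S region, in intron 8 of 9 (chr9:7452232-7452306), held 7 and 4, a log2 ratio of -1.27 (-3.08 to 0.27), and the siRNA tables listed no region of Mmp3. The Mmp13 promoter region (chr9:7272328-7272441), 130 bases before the start, held 0 reads in NC, 4 with TGF-b and 6 with siRNA. With the same floor of 3 reads it was at least 1.49-fold higher with TGF-b than in NC (interval from 0.31), and its log2 ratio for siRNA against TGF-b was 0.94 (-0.69 to 2.76). A region in intron 4 of 9 of Mmp13 ran the other way, from 6 reads in NC to 0 with TGF-b, at least 1.48-fold lower (interval up to -0.40). Mmp13 had no region in the S set. Both Mmp3 regions and the intron 4 region of Mmp13 had been called in NC only, and the Mmp13 promoter region in the TGF-b library only. The direction between NC and TGF-b is thus part of how each was chosen. At 4 to 7 reads, these places are close to the limit of what the libraries could show.

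Mmp14, or MT1-MMP, is anchored in the cell membrane, cuts fibrillar collagen and activates pro-MMP2 together with TIMP2. Both of its regions in the siRNA table of the T set were at least 2-fold higher, beside 49.7% of all regions of that table, and neither of those in the other T table was 2-fold apart. The region in exon 1, 263 bases past the start of ENSMUST00000198679 (chr14:54669398-54669478), held 3 reads with TGF-b and 14 with siRNA, a log2 ratio of 2.36 (0.98 to 4.38). That in intron 1 of 9 (chr14:54671848-54671912) held 13 and 28, a log2 ratio of 1.52 (0.64 to 2.51). Both had been called in the siRNA library only, where the median log2 ratio over all such regions was 1.62, so that a high value there is part of how they were chosen. With the table's median subtracted, the first had a log2 ratio of 1.39 and the second of 0.55. Against NC, the region 2820 bases before an inner start held 11 reads and 20 with TGF-b, a log2 ratio of 0.88 (-0.10 to 1.98). It had been called in NC only, although its window held more reads with TGF-b. The region 2107 bases before the main start lay in intron 4 of 4 of the neighbouring gene Mrpl52, held 13 and 7 reads and had a log2 ratio of -0.69 (-2.06 to 0.50). No S set table listed a region of Mmp14.

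Adamts1, a secreted protease that cuts the proteoglycans versican and aggrecan, had the T set window with the most reads of all 10 genes. The region annotated as 5′ UTR (chr16:85598135-85598268), 168 bases past the start of ENSMUST00000125897 and 1.8 kb into the gene, held 57 reads in NC, 33 with TGF-b and 26 with siRNA. Its mean density stood at percentile 98.6 of all regions in the first table. Its log2 ratio was -0.79 (-1.42 to -0.19) for TGF-b against NC, or -0.14 with the table's median subtracted, and 0.14 (-0.60 to 0.86) for siRNA against TGF-b. The region 148 bases before the same start, which shares its window, held 36 reads with TGF-b and 26 with siRNA. Its log2 ratio was 0.02 (-0.71 to 0.73), or -0.95 with that table's median subtracted. About 1.4 kb before the main start lay a place with regions in both sets. The T region there (chr16:85601338-85601449) held 4 reads in NC, 23 with TGF-b and 2 with siRNA. Its log2 ratio was 2.37 (1.17 to 4.10) against NC and -2.54 (-5.00 to -1.13) for siRNA against TGF-b. The S region (chr16:85601255-85601474) covered all 112 bases of the T region. It was listed in the siRNA table only and held 3 reads with TGF-b and 17 with siRNA, a log2 ratio of 2.28 (0.94 to 4.29). The T region had been called with TGF-b only and the S region with siRNA only, so that each entered its table through the library in which it is high.

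**Figure D4:**
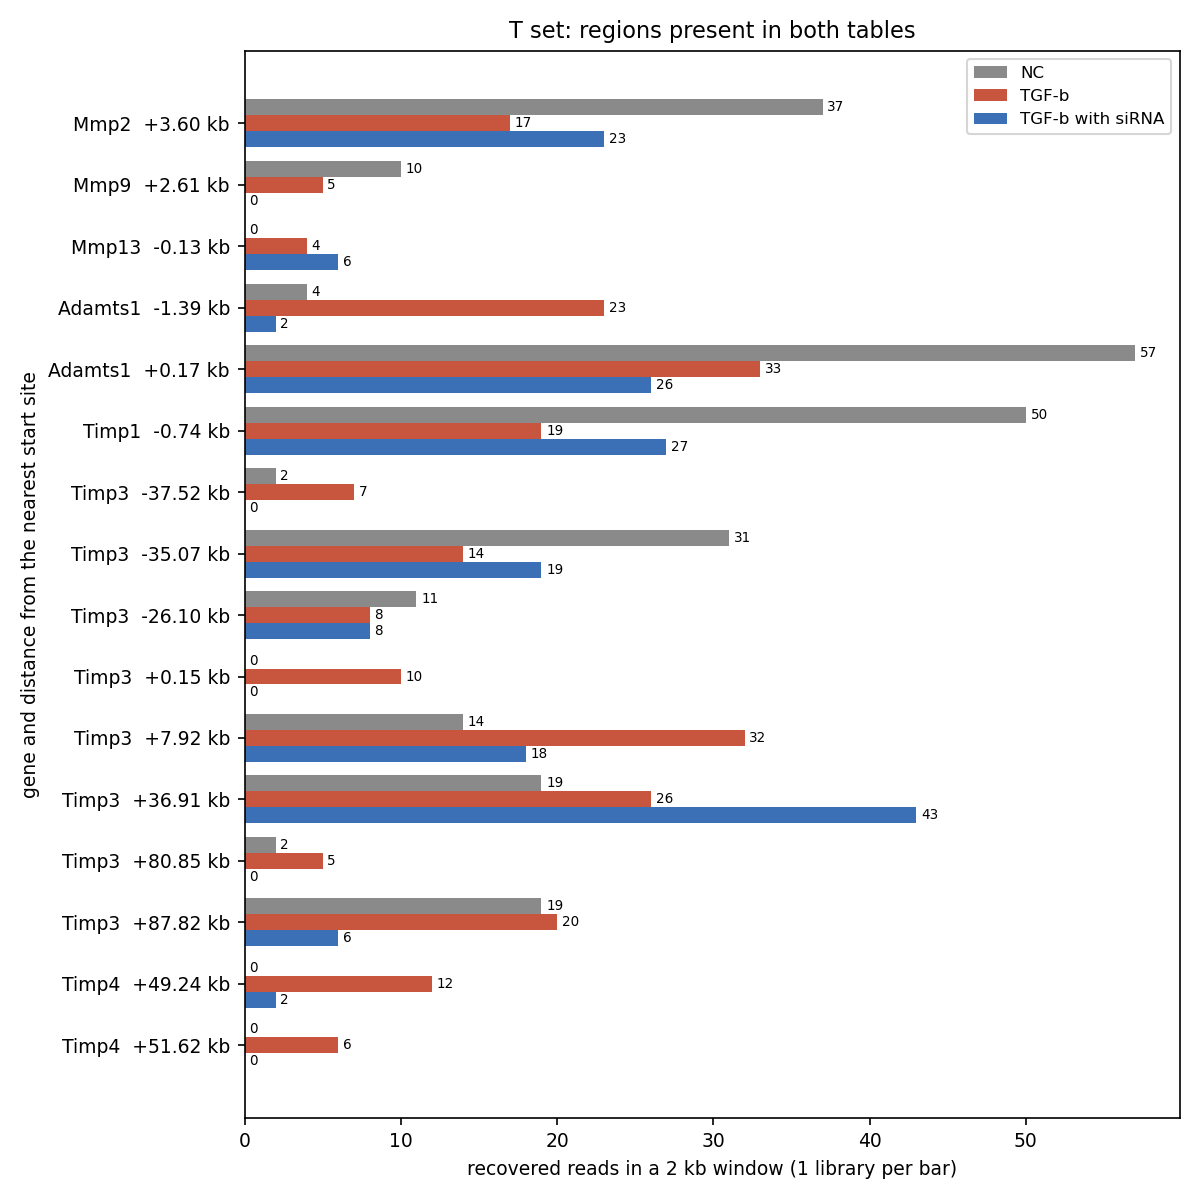
Reads in a 2 kb window (horizontal axis, 1 library per bar) for the 16 T set regions listed in both tables, by gene and distance from the nearest start (vertical axis). NC was the longest bar at Timp1 (50 reads), Adamts1 in the 5′ UTR (57) and Mmp2 (37), and TGF-b the longest about 1.4 kb before Adamts1 (23) and in intron 1 of Timp3 (32).

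Timp1, a soluble inhibitor made by activated fibroblasts, had its T set reads just before its start. The region 738 bases before it (chrX:20735553-20735782) held 50 reads in NC, 19 with TGF-b and 27 with siRNA, and that 55 bases before it (chrX:20736292-20736408) held 50 in NC and 17 with TGF-b. Their windows share most of these reads. The log2 ratios for TGF-b against NC were -1.34 (-2.14 to -0.63) and -1.49 (-2.32 to -0.76), and their mean densities stood at percentiles 97 and 96.7 of the table. Both had been called in NC only, and with the table's median of -0.65 subtracted the ratios were -0.69 and -0.83. The siRNA table listed only the first, with a log2 ratio of 0.96 (0.14 to 1.81), next to a median of 0.97 over all regions. A further region, in exon 6 of 13 of Syn1, held 12 and 6 reads. No S set table listed a region of Timp1.

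Timp2 blocks MMP2 and also takes part in its activation. It had 4 places in the first T set table and none in the siRNA table. Of these, 3 lay in overlapping windows around the start, with 15, 20 and 17 reads in NC and 13, 12 and 12 with TGF-b. The region nearest the start (chr11:118246313-118246402, 25 bases before it) had a log2 ratio of -0.62 (-1.68 to 0.35), and no Timp2 region of the T set was 2-fold apart. The single S region of Timp2 (chr11:118233266-118233446) lay elsewhere, 13 kb into the gene at the start of ENSMUST00000249109. It held 2 reads in NC, 16 with TGF-b and 1 with siRNA. Its log2 ratio was 1.91 (0.44 to 4.37) against NC and -2.95 (-6.43 to -1.30) for siRNA against TGF-b. It too had been called in the TGF-b library only.

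Timp3, the inhibitor that stays bound to the matrix, held 30 of the 68 T set places. Timp1, Timp3 and Timp4 each lie within a synapsin gene, on the other strand, and 20 of the 30 Timp3 places were annotated in Syn3. Within the Timp3 gene span itself (chr10:86136236-86185370), the first T set table had 6 regions, of which 3 were at least 2-fold higher with TGF-b and 0 lower, with a median log2 ratio of 0.87. Of the 20 regions outside the span, 2 were higher and 12 lower, with a median of -1.15. Over the whole table, 17.3% were higher and 42.1% lower, with a median of -0.65. Of the regions outside, 16 had been called in NC only, among them all 12 lower ones, and of those inside 3, so that the calls differ along with the ratios. This split was made after the values had been seen. The region annotated as 5′ UTR (chr10:86138820-86138919), 151 bases past the start of ENSMUST00000132307, held 0 reads in NC, 10 with TGF-b and 0 with siRNA. With the empty libraries given 3 reads, it was at least 3.2-fold higher with TGF-b than in NC (interval from 1.60) and at least 2.02-fold lower with siRNA than with TGF-b (up to -0.94). It had been called in the TGF-b library only.

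Farther into intron 1 of 4 of Timp3, the region chr10:86146524-86146759 held 14 reads in NC, 32 with TGF-b and 18 with siRNA. The log2 ratio was 1.18 (0.35 to 2.13) against NC and -0.32 (-1.18 to 0.46) for siRNA against TGF-b. An S region lay inside it and held 7 reads with TGF-b and 9 with siRNA, a log2 ratio of 0.43 (-0.90 to 1.85). The third higher region, also in intron 1 (chr10:86154376-86154449), held 4 and 15 reads in NC and TGF-b, a log2 ratio of 1.81 (0.51 to 3.55). It had been called in NC only, although its window held more reads with TGF-b. In intron 2, chr10:86175512-86175753 held 19, 26 and 43 reads in NC, TGF-b and siRNA, and the log2 ratio was 0.47 (-0.35 to 1.33) against NC and 1.18 (0.51 to 1.90) for siRNA against TGF-b, or 0.21 for the latter with the table's median of 0.97 subtracted. A region of intron 1 (chr10:86166392-86166466) that the siRNA table alone listed held 7 reads with TGF-b and 18 with siRNA, a log2 ratio of 1.71 (0.60 to 3.05). With the table's median subtracted it was 0.74. The region had been called in the siRNA library only, where the median of all such regions was 1.62.

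**Figure D5:**
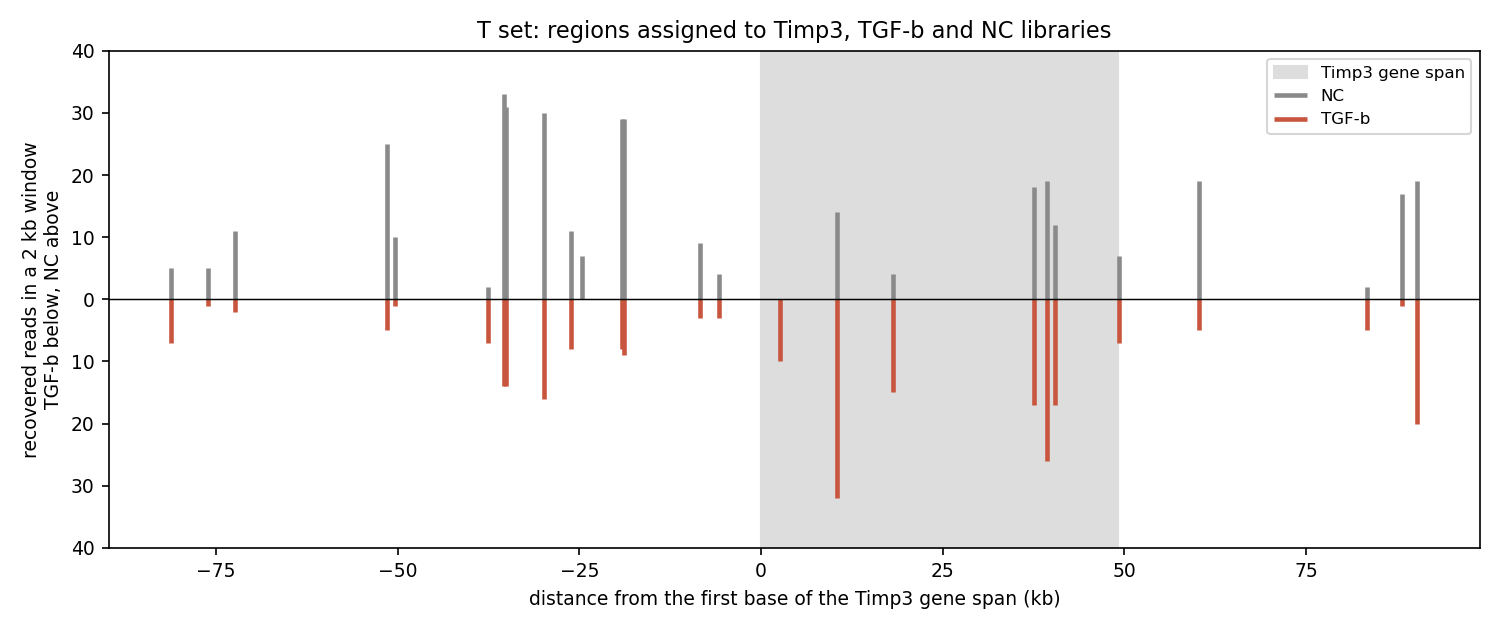
Reads in a 2 kb window (vertical axis, NC above and TGF-b below the line) for the 26 regions assigned to Timp3 in the first T set table, by distance from the first base of the gene (horizontal axis, kb). Within the shaded gene span the TGF-b bars reach 32 reads and the NC bars 19, while before the gene the NC bars reach 33 and the TGF-b bars 16.

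Outside the gene, the Timp3 regions with the most reads were those in intron 6 of 13 of Syn3. The region 35441 bases before the start had a log2 ratio of -1.14 (-2.08 to -0.31), from 33 reads in NC and 14 with TGF-b. Its neighbour in the same window held 31 and 14, followed by 19 with siRNA. The pair at 19095 and 18777 bases before the start, again in a shared window, held 29 and 29 reads in NC and 8 and 9 with TGF-b. These gave log2 ratios of -1.66 (-2.89 to -0.68) and -1.52 (-2.68 to -0.57). The regions at 51483 and 72322 bases before it went from 25 to 5 and from 11 to 2 reads, or by log2 ratios of -2.02 (-3.56 to -0.89) and -1.84 (-4.30 to -0.29). On the far side, those 57823 and 85708 bases past the inner start went from 19 to 5 and from 17 to 1, with log2 ratios of -1.63 (-3.19 to -0.45) and -3.01 (-6.48 to -1.36). With the table's median subtracted, the log2 ratios at 35441, 18777 and 57823 bases were -0.48, -0.87 and -0.98. Those at 19095, 51483, 72322 and 85708 bases stayed past 2-fold, at -1.01, -1.37, -1.18 and -2.35. Of the 7 Timp3 regions outside the gene in the siRNA table of the T set, 1 was at least 2-fold higher and 3 were lower with siRNA than with TGF-b, beside 49.7% and 16.2% of all regions. All 3 lower ones had been called in the TGF-b library only. The one with over 10 reads, 87821 bases past the inner start, held 20 reads with TGF-b and 6 with siRNA, and the other two held 7 and 5 with TGF-b and 0 with siRNA, which against a floor of 3 reads is less than 2-fold. A further S region, in the last exon of Timp3, held 6 reads in NC and 2 with TGF-b, a log2 ratio of -1.83 (-4.31 to -0.08). That with the most S set reads, 3975 bases before the start, held 13 reads with TGF-b and 10 with siRNA.

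Timp4, the inhibitor most typical of heart muscle, had 10 T set places, all between 7300 and 51617 bases past its start and none on the gene. Of these, 8 were annotated in introns of Syn2. The places with the most reads were empty in another library. The region 49243 bases past the start (chr6:115179495-115179637) held 0 reads in NC, 12 with TGF-b and 2 with siRNA. It was at least 3.76-fold higher with TGF-b than in NC (interval from 1.85), with the empty library given 3 reads, and its log2 ratio for siRNA was -1.66 (-4.13 to -0.14). The region 26910 bases past the start (chr6:115201867-115201931) held 0 reads with TGF-b and 13 with siRNA, at least 4.76-fold higher (interval from 2.2). The former had been called in the TGF-b library only, in both tables, and the latter in the siRNA library only, so that each is high where it was called. The other Timp4 windows held 7 reads or fewer. The single S region, 12975 bases past the start, held 12 reads with TGF-b and 7 with siRNA, a log2 ratio of -0.60 (-1.98 to 0.63).

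With siRNA and TGF-b against TGF-b alone, fewer of the 34 T set regions were higher than in the table as a whole. At least 2-fold higher were 11 (32.4%) against a background of 49.7%, and at least 2-fold lower were 8 (23.5%) against 16.2%. The median log2 ratio was 0.77, below the 0.97 of all regions, so that it changed sign to -0.20 once all ratios were centred on that median. The interval lay above 0 for 10 regions (29.4%) against 38.9%, and below 0 for 6 (17.6%) against 11.4%. Calls differed in the same way: 21 of the 34 regions (61.8%) had been called in the siRNA library only, against 70.5% of all regions, and 10 (29.4%) in TGF-b only, against 25.3%. Depth differed as well: 13 of the 34 (38.2%) had a library with 3 reads or fewer, against 57.9% of all regions. Over 10 reads in a library were held by 17 (50%), against 38.3%. How far depth bears on the 2-fold shares was not tested. Whether these shares differ beyond chance was not tested, since regions of 1 gene share reads and hosts.

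In the S set, 4 of 8 regions (50%) were at least 2-fold higher with TGF-b than in NC, against a background of 17.4%, and 2 (25%) were lower, against 26.7%. The 4 were 1 of Mmp2, 2 of Mmp9 and 1 of Timp2, and the median log2 ratio over the 8 was 0.79, beside -0.2 over all regions. The interval lay above 0 for 3 (37.5%) against 11.5%, and below 0 for 1 (12.5%) against 19.2%. Of the 8 regions, 6 (75%) had been called with TGF-b only, against 46.9% of all regions. With siRNA and TGF-b against TGF-b, 2 of 11 regions (18.2%) were at least 2-fold higher, against 15.1%, and 4 (36.4%) lower, against 27.8%. The interval lay above 0 for 1 (9.09%) against 10.2%, and below 0 for 4 (36.4%) against 21.8%. The 4 lower regions were 1 of Mmp2, 2 of Mmp9 and 1 of Timp2. Both tables share the TGF-b library, so that its count enters both ratios.

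All regions of the 10 genes have a gene assigned, by the way they were chosen, so that their positions are set beside the regions of each table that have one, 101851 of 170890 in the first T set table and 27257 of 52723 in the first S set table. In the former, 15 of the 50 regions (30%) lay within 3 kb of a start, against 27.9%, and 34 (68%) in introns, against 74.6%. The latter had 5 of 8 (62.5%) within 3 kb, against 28.4%, and 3 (37.5%) in introns, against 72.2%. The siRNA tables had 14 of 34 (41.2%) within 3 kb for T, against 26.6%, and 6 of 11 (54.5%) for S, against 33.4%. T and S regions of the genes overlapped at 3 places: intron 11 of Mmp2, intron 1 of Timp3 and the stretch before Adamts1.

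Other genes of matrix proteolysis gave a background for the family. In the T set with TGF-b against NC, 18 other matrix metalloproteinase genes had 40 regions, 6 of them at least 2-fold higher and 21 lower, with a median log2 ratio of -1.12. In the same table, 18 other ADAMTS genes had 184 regions with 25 higher and 77 lower and a median of -0.63. The 8 membrane regulators and sheddases, such as Reck and Adam17, had 65 regions with 8 higher and 21 lower, and the 6 genes of the plasminogen system, which activates several MMPs, had 25 with 5 higher and 10 lower. With siRNA against TGF-b, the other MMP genes had 27 of 44 regions higher and 6 lower with a median of 1.77, and the other ADAMTS genes 82 of 178 higher and 37 lower with a median of 0.86. The membrane list had 41 of 82 regions higher and 8 lower there, and the plasminogen list 7 of 18 higher and 5 lower. For S with TGF-b against NC, the other MMP genes had 1 of 17 regions higher and 4 lower, with a median of -0.58, and the plasminogen genes had 0 of 4 higher and 3 lower. The ADAMTS list had 6 of 31 regions higher there and 9 lower, and the membrane list 5 of 15 higher and 7 lower, beside the 4 of 8 higher and 2 lower of the members. With siRNA against TGF-b, higher and lower S regions numbered 1 and 2 of 10 for the other MMP genes, 6 and 7 of 40 for the ADAMTS list, 1 and 3 of 15 for the membrane list and 1 and 0 of 3 for the plasminogen list, beside the members' 2 and 4 of 11.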

How the data were processed

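CUT&Tag reads were mapped and peaks called by the authors. The study's methods name GRCm39, Bowtie2 and a tool written Masc2, whereas the submitters' processing notes name mm10 and BWA 0.7.12, and the gene positions in the files are those of GRCm39. The authors deposited 4 tables of regions. Their normalized read density is a signal of reads plus 1 over a 2 kb window, which the authors then adjusted with a line fitted per table to log2 density, centring peaks called in both libraries. Any shift shared by those peaks is thereby lost, and values are not comparable between tables. That line was recovered and undone, and the results were whole numbers of reads, with a tolerance of 0.1, for 99.97% to 99.99% of each table and for every region named. The steps were checked on simulated reads. Libraries have no replicate, so counts, medians and Wilson 95% intervals (Python 3.11.15, numpy 2.4.6, pandas 2.3.3, scipy 1.17.1) are given and no test. The deposited tables also hold the authors' own fold changes and p-values, which were not used.

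Members, gene lists and rules were chosen with earlier results of these data known. Named for each gene and table were the region nearest a start within 3 kb, the one with the highest mean density, and those with over 10 reads in a library and at least 2-fold apart. A region outside this rule is named where it overlaps or adjoins one of these, or completes a gene's list, and was then chosen after its values were seen. The alternatives tried were a threshold of 1.5-fold, regions with over 10 reads, centring on the median, no line, and reads of 3 or fewer set to 3. Leaving out Timp3 and keeping regions within 10 kb of a start were added after seeing the data. No sequence was read by the files' positions, since the genome used here was GRCm38.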

Additional observations from a re-analysis of the deposited data

Results flagged for a closer look

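At 3 places a T region and an S region overlapped and the log2 ratios of the sets had opposite signs under the same contrast, which is why they are listed here. Only before Adamts1 did the counting intervals of both sets exclude 0. None of these differences was tested, as each set had 1 library per treatment. Before Adamts1, siRNA with TGF-b against TGF-b gave a log2 ratio of -2.54 for T and 2.28 for S, where the T region had been called with TGF-b only and the S region with siRNA only, so that each was high in the library that put it into its table. In intron 11 of Mmp2, TGF-b against NC gave -1.05 for T and 0.25 for S, where the S interval included 0. There, siRNA against TGF-b gave 0.88 for T and 0.39 for S, and the S interval again included 0. With each table's median subtracted, the siRNA values were -0.09 for T and 0.6 for S. In intron 1 of Timp3, siRNA against TGF-b gave -0.32 for T and 0.43 for S, and both intervals included 0.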

How the results depend on the processing

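The counts rest on few regions and few reads. In the T set with TGF-b against NC, the 9 higher and 20 lower regions became 4 and 13 among those with over 10 reads, 15 and 10 after centring on the median of all regions, 4 and 8 without Timp3, and 4 and 8 within 10 kb of a start. In the S set with TGF-b against NC, the 2 lower regions became 0 with over 10 reads and 1 without the authors' line, without Timp3 or within 10 kb, whereas the 4 higher ones stayed within 1.5 times of 4 under every alternative. In the T set with siRNA, the 11 higher regions became 19 at 1.5-fold, 6 with over 10 reads, 4 after centring, 7 without the line and 6 within 10 kb. The 8 lower ones became 3 with over 10 reads, 4 with reads of 3 or fewer set to 3, 4 without Timp3 and 3 within 10 kb. The median there went from 0.77 to -0.20 after centring. In the S set with siRNA, the 2 higher regions became 1 with over 10 reads, without Timp3 or within 10 kb. With 1 kb in place of 3 kb as the limit of a promoter, the regions near a start went from 15 to 10 and from 14 to 8 in the T tables, and from 5 to 3 and from 6 to 3 in the S tables. Fewer regions enter with over 10 reads, without Timp3 and within 10 kb by construction, and for the others the cause was not tested. No log2 ratio of a named region past 2-fold changed sign, and 52 of 59 stayed within their counting interval after centring. No paired analysis was possible because the result comes from no test.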
